A study of Mus musculus with 12 samples.

Results

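Genes of neutrophil attraction were followed in mouse lung RNA: the CXC chemokines Cxcl1, Cxcl2, Cxcl3, Cxcl5 and Cxcl15, and the receptor Cxcr2. They were found by exact match of the gene name, which gave 6 of the 35599 genes listed. Whole lung tissue was sequenced from 3 groups of 4 libraries. ND-RHL libraries came from mice given bleomycin and lipopolysaccharide (LPS) and then liposomes that carried nintedanib and dexamethasone and were coated with hyaluronic acid and RGD peptides. AE-PF libraries came from mice given the same bleomycin and LPS challenge, a model of acute exacerbation of pulmonary fibrosis, without treatment. Saline libraries came from control mice that received neither. The labels used here give no age, sex, strain, dose or time, and there was no group given empty liposomes or either drug alone. They do not say that the 4 libraries of a group are 4 animals, so p-values measure the spread between these libraries, which may be partly technical.

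CXC chemokines are small secreted proteins. Those with a glutamate-leucine-arginine (ELR) motif before their paired cysteines bind the receptor CXCR2 on neutrophils and draw these cells from blood into tissue. Mice have no interleukin-8 gene, and Cxcl1, Cxcl2, Cxcl3 and Cxcl5 cover that role; their transcription is known to be switched on by NF-kB in macrophages, epithelium and stromal cells. Cxcl15, also called lungkine, is a mouse chemokine made by lung epithelium and secreted into the airways.

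The 5 chemokine genes lie in one cluster on the plus strand of mouse chromosome 5, given here in the GRCm38 build with GENCODE annotation. Cxcl5 (chr5:90759360-90761624) comes first, and Cxcl3 (chr5:90786103-90789600), Cxcl15 (chr5:90794534-90803067), Cxcl1 (chr5:90891241-90893115) and Cxcl2 (chr5:90903871-90905938) follow. Ppbp and Pf4, which encode platelet chemokines, lie between Cxcl5 and Cxcl3, and the span from Cxcl5 to Cxcl2 is 146579 bases. Cxcr2 lies apart, on chromosome 1 (chr1:74153989-74161246, plus strand). In the annotation Cxcl1, Cxcl3, Cxcl5 and Cxcl15 have 4 exons in their longest coding transcript, Cxcl2 has 3 and Cxcr2 has 2.

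Promoter windows from RefSeq (GRCm38.p6, 250 bases before to 50 after the start of the gene) were found for 5 of the 6 genes, all but Cxcl5. They were searched on both strands for an NF-kB-like motif, TGANTCA, an AP-1-like motif, and TATAAA. Sequences of 120 bases are shown for the 4 chemokine genes, because Cxcl15 moved against the other 3 in both comparisons that involve AE-PF. Capitals mark the NF-kB-like motif on either strand, where the matches of both strands overlap by all but 1 base, and TATAAA.
Cxcl3 (chr5:90785981-90786100): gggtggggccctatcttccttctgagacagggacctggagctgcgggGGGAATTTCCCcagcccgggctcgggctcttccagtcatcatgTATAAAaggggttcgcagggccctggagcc
Cxcl1 (chr5:90891125-90891244): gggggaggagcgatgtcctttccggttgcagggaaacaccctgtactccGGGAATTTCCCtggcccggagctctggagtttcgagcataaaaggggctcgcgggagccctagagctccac
Cxcl2 (chr5:90903779-90903898): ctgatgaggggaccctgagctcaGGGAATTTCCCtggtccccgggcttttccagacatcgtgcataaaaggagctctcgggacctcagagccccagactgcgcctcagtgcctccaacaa
Cxcl15 (chr5:90794414-90794533): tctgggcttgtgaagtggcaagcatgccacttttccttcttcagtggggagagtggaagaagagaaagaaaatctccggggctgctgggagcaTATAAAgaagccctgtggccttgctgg
The NF-kB-like motif was present in the windows of Cxcl1, Cxcl2 and Cxcl3, beginning 71, 97 and 73 bases before the RefSeq start. Each match was spelled GGGAATTTCC. All distances here are from RefSeq starts, which can differ from the GENCODE starts given above. The difference is largest for Cxcl2, whose printed sequence ends at 90903898, past the GENCODE start of 90903871. It was in 482 of 32851 windows of the same length (1.47%), and the exact spelling, which was looked for after these sequences were seen, in 29 (0.0883%). These letters were not in the windows of Cxcl15 and Cxcr2. TATAAA began 30 bases before the start of Cxcl3 and 27 before that of Cxcl15, and was in 13.6% of all windows. TGANTCA, in 7.81% of all windows, was in none of the 5. A match in a window is a description and not a measured binding site.

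The libraries held 16152379 to 21667129 assigned fragments, recovered from the deposited FPKM values (fragments scaled by gene length and by the fragments of the library). Lung identity was clear in all 12: Sftpc, the surfactant gene of alveolar type 2 cells, ranged from 7899 to 14292 FPKM in ND-RHL, from 969 to 3945 in AE-PF and from 10792 to 13515 in saline. AE-PF replicate 2 and ND-RHL replicate 4 stood apart. Markers of squamous epithelium summed to 6328 FPKM in ND-RHL replicate 4 and 1919 in AE-PF replicate 2, against 2.94 to 16.6 in the other 10 libraries. Skeletal muscle markers summed to 1712 FPKM in ND-RHL replicate 4 and 742 in AE-PF replicate 2. Saline replicate 3 was raised as well in muscle markers, at 134 FPKM, against 3.29 to 21.5 in the other 9 libraries. Every count of the 6 genes called in the main fit, given below, was the same without both libraries. Counts of groups that do not overlap are not covered by this: without AE-PF replicate 2 all AE-PF values of Cxcl5 lay below saline. The exact p of Cxcl2 and of Cxcl3 in AE-PF against saline became 0.0571 without both libraries.

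Cxcl1, Cxcl2 and Cxcl3, the classical inducible neutrophil attractants, rose in AE-PF lungs and were lower after ND-RHL. Cxcl1 stood at 1.60, 1.33, 2.36 and 1.74 FPKM in AE-PF libraries, against 1.08, 0.489, 0.899 and 1.08 in saline libraries. All AE-PF values lay above all saline values, and the means were 1.76 ± 0.439 FPKM in AE-PF and 0.887 ± 0.278 in saline (SD, n = 4 each), a ratio of 1.98. On the log2(FPKM + 1) scale, which understates changes of weakly expressed genes, the difference was 0.55 (SE 0.15, limma adjusted p = 0.0094). In such bulk tissue, fewer cells of a type and less RNA per cell cannot be told apart.

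ND-RHL libraries had 0.615, 0.925, 0.577 and 0.337 FPKM of Cxcl1, all below the lowest AE-PF library. The ND-RHL mean of 0.614 ± 0.241 FPKM was 2.86-fold lower than the AE-PF mean (log2 difference -0.77, limma adjusted p = 0.00235). ND-RHL and saline libraries overlapped, and the difference of -0.22 had a 95% interval from -0.56 to 0.11 (limma adjusted p = 0.313).

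Cxcl2, which encodes macrophage inflammatory protein 2, was weaker than Cxcl1 and had a larger ratio. It had 1.11, 1.02, 0.743 and 1.23 FPKM in AE-PF libraries, against 0.379, 0.209, 0.264 and 0.503 in saline libraries, a 3.02-fold ratio of the means. The 2 groups did not overlap. ND-RHL libraries had 0.345, 0.509, 0.150 and 0.306 FPKM, a mean 3.13-fold lower than that of AE-PF. The ND-RHL values spread over the saline range, with means of 0.327 ± 0.148 in ND-RHL and 0.339 ± 0.130 in saline (SD, n = 4 each).

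Cxcl3, a close relative of Cxcl2, had the lowest FPKM of the 6, a value divided by the whole gene span of 3498 bases; by fragments it was not below Cxcl2 in saline, with 65 over the 4 libraries and 53 for Cxcl2. It had 0.437, 0.380, 0.642 and 0.426 FPKM in AE-PF libraries, against 0.224, 0.278, 0.284 and 0.175 in saline libraries, a ratio of 1.96. ND-RHL libraries had 0.110, 0.0885, 0.133 and 0.263 FPKM, a mean 3.17-fold lower than that of AE-PF. Neither saline nor ND-RHL libraries overlapped with AE-PF libraries.

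Neither Cxcl2 nor Cxcl3 reached 1 FPKM in at least 4 libraries, the filter of the main fit, so each was tested alone by an exact two-sided permutation test. Both gave an exact p of 0.0286 in the AE-PF comparison with saline and again in that of ND-RHL with AE-PF, the smallest value that 70 labelings of 4 against 4 allow. With 1 library left out, 4 against 3 cannot go below 0.0571. In ND-RHL against saline the exact p was 0.914 for Cxcl2 and 0.0857 for Cxcl3. Depth limits both genes: they rested on 26 to 46 fragments of Cxcl2 and 24 to 38 of Cxcl3 per AE-PF library, and on 6 to 17 and 5 to 16 per ND-RHL library.

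A limma-voom fit of the recovered fragments included all 6 genes and does not compress weak ones. In AE-PF against saline it gave log2 fold changes of 1.00 for Cxcl1 (adjusted p = 0.0122), 1.63 for Cxcl2 (adjusted p = 0.00137) and 0.93 for Cxcl3 (adjusted p = 0.0125). In ND-RHL against AE-PF the limma-voom values were -1.55 for Cxcl1 (adjusted p = 0.00304), -1.73 for Cxcl2 (adjusted p = 0.00218) and -1.69 for Cxcl3 (adjusted p = 0.00146). By both routes all 3 genes exceeded saline in AE-PF and fell below AE-PF after ND-RHL. Sequence shared by Cxcl2 and Cxcl3 leaves their split slightly uncertain: 126 stretches of 50 bases occur in transcripts of both, 5.84% of those of Cxcl2 and 3.51% of those of Cxcl3.

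**Figure D1:**
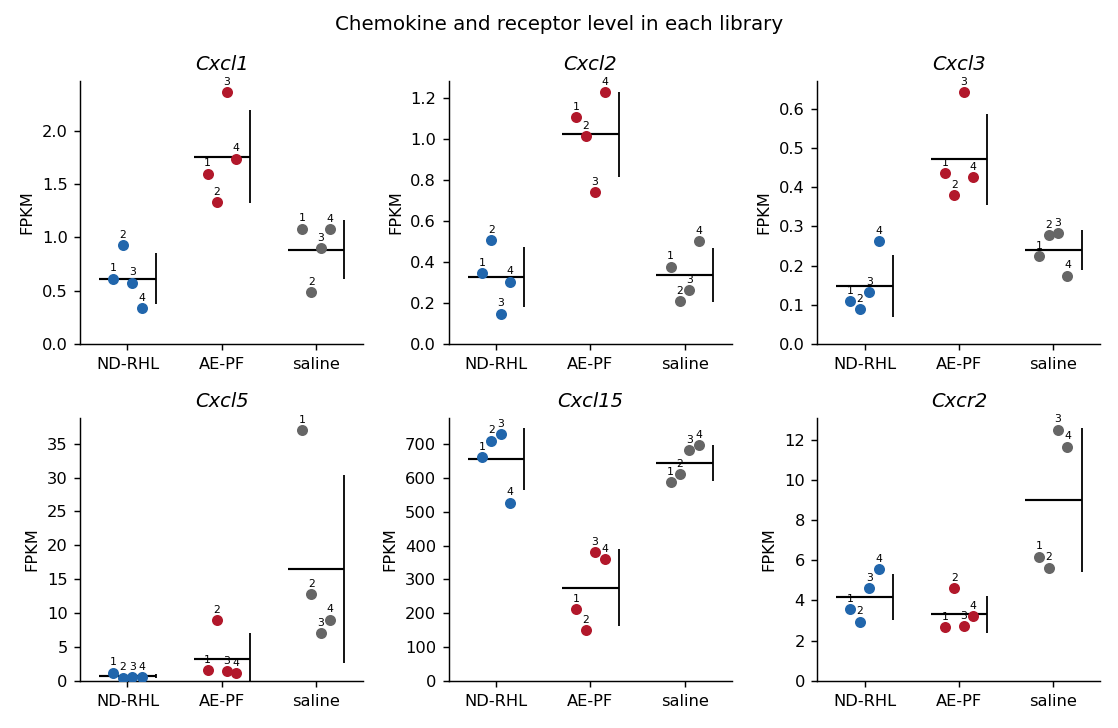
FPKM (vertical axes, each starting at 0) of the 6 genes in each of the 12 libraries, by group; numbers are replicates, horizontal lines are means and vertical lines are SD (n = 4), drawn from 0 where the SD exceeds the mean. Cxcl1, Cxcl2 and Cxcl3 are highest in AE-PF, Cxcl15 is lowest there, Cxcl5 reaches 37.0 FPKM in 1 saline library, and Cxcr2 is highest in saline.

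Cxcl5, known as LIX in mice and made by epithelial cells and platelets, went the other way in AE-PF. It had 1.55, 8.94, 1.43 and 1.10 FPKM in AE-PF libraries, against 37.0, 12.8, 7.08 and 9.06 in saline libraries. AE-PF replicate 2 lay within the saline range and the other 3 AE-PF libraries below it. The means were 3.25 ± 3.80 FPKM in AE-PF and 16.5 ± 13.9 in saline (SD, n = 4 each), and the log2(FPKM + 1) difference was -2.09 (SE 0.54, limma adjusted p = 0.0062). The size rests on single libraries: the AE-PF mean was 5.06-fold lower, 12.1-fold lower without AE-PF replicate 2 and 2.96-fold lower without saline replicate 1.

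No return of Cxcl5 was seen after ND-RHL. ND-RHL libraries had 1.24, 0.498, 0.526 and 0.617 FPKM, all below the lowest saline library. Against saline the mean was 22.9-fold lower, or 13.4-fold without saline replicate 1 (log2 difference -3.08, limma adjusted p = 0.00299). Against AE-PF the log2 difference was -0.99 with a 95% interval from -2.17 to 0.19 (limma adjusted p = 0.159); the mean was 4.52-fold lower, but 1.88-fold without AE-PF replicate 2. That replicate was also rich in squamous transcripts, while ND-RHL replicate 4, with the highest squamous sum, had 0.617 FPKM of Cxcl5; the part of those transcripts in the AE-PF value was not tested.

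In saline lungs Cxcl5 was the largest part of the summed level of the 4 classical attractants. Cxcl1, Cxcl2 and Cxcl3 together summed to 0.860 to 1.52 FPKM in ND-RHL, 2.72 to 3.75 in AE-PF and 0.976 to 1.75 in saline. Cxcl5 made up 24.7% to 53.6% of the 4-gene sum in ND-RHL, 24.4% to 76.6% in AE-PF and 83.0% to 95.6% in saline, and the AE-PF maximum was replicate 2. These shares are per length and rest on the lengths used by the authors: for Cxcl1, Cxcl2 and Cxcl3 these equal the whole gene span (1875, 2068 and 3498 bases), introns included, because transcripts with retained introns are annotated. The longest coding transcripts have 953, 1859 and 1016 bases, so FPKM sets these 3 genes lower than a coding length would, and for Cxcl5 the lengths are 1863 and 1575.

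**Figure D2:**
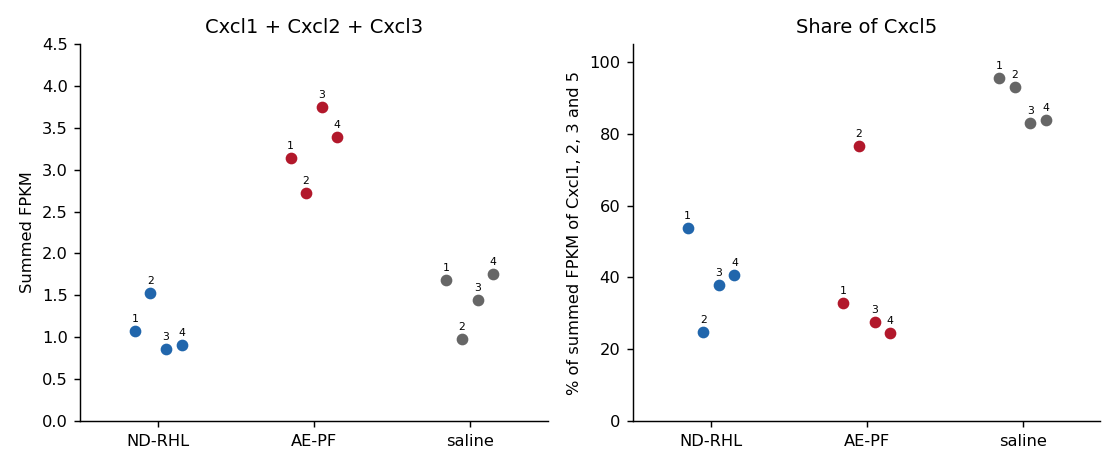
Left, summed FPKM of Cxcl1, Cxcl2 and Cxcl3; right, Cxcl5 as a percentage of the summed FPKM of Cxcl1, Cxcl2, Cxcl3 and Cxcl5; each point is 1 of 12 libraries, numbered by replicate. The sum is highest in the 4 AE-PF libraries, and the share of Cxcl5 is 83.0% or more in saline and 76.6% or less elsewhere.

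Cxcl15 was by far the strongest of the 6 in FPKM, fell in AE-PF and stood at the saline level in ND-RHL. It had 212, 149.6, 381 and 360.5 FPKM in AE-PF libraries, against 587, 609.9, 682 and 697 in saline libraries. ND-RHL libraries had 661, 709.9, 728 and 526 FPKM. Both other groups lay wholly above AE-PF, and they overlapped each other.

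The AE-PF mean of Cxcl15, 276 ± 113 FPKM, was 2.33-fold lower than the saline mean of 644 ± 53.7 (SD, n = 4 each; log2 difference -1.32, SE 0.26, limma adjusted p = 0.00118). The ND-RHL mean of 657 ± 91.2 was 2.38-fold higher than the AE-PF mean (log2 difference 1.34, limma adjusted p = 0.00208). Between ND-RHL and saline the log2 difference was 0.02, with a 95% interval from -0.54 to 0.58 (limma adjusted p = 0.964).

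Alveolar type 2 markers moved with Cxcl15. All 13 fell in AE-PF against saline, where 30.2% of all genes were called lower. Their median log2 difference was -1.44, against -0.03 over all genes tested. In ND-RHL against AE-PF all 13 rose, where 24.3% of all genes were called higher, with a median of 1.28 against 0.06. None of the 13 passed in ND-RHL against saline, where 21.9% of all genes were called. Their summed level was 10395 to 18465 FPKM in ND-RHL, 1734 to 5482 in AE-PF and 13985 to 17584 in saline. Among them Sftpa1, a surfactant protein gene, had a log2 difference of -2.05 in AE-PF against saline (limma adjusted p = 2.8e-05). The -1.32 of Cxcl15 lay inside the range of the 13 markers, -2.36 to -0.61; 8 fell further and 5 less. Markers of club cells, the secretory cells of the airways, also fell in AE-PF, 10 of 10 with a median of -3.07, and 6 of them rose in ND-RHL against AE-PF. The course was not limited to secretory epithelium. Ciliated cell markers fell for 8 of 8 in AE-PF against saline (median -1.27) and rose for 8 of 8 in ND-RHL against AE-PF (median 0.79). Of 8 endothelial markers 6 fell and 2 rose in AE-PF against saline, and 6 rose and 2 fell in ND-RHL against AE-PF. The part of any of these cell types in the Cxcl15 result was not tested.

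Over the 12 libraries, the genes with the nearest profile to Cxcl15 were Mlc1, Lamp3 and Slco4c1, at root mean square differences of 0.0861, 0.0878 and 0.116 between standardized log2(FPKM + 1) profiles. The median gene was at 1.22. Lamp3 is one of the 13 markers. Lamp3 ranged from 119 to 173 FPKM in ND-RHL, from 12.5 to 62.2 in AE-PF and from 132 to 159 in saline. The other members past the filter had more distant neighbours: Zswim6 for Cxcl1 (0.345), Cry1 for Cxcl5 (0.322) and Hspb1 for Cxcr2 (0.339). These distances are not on an equal footing, because counting noise is larger for weak genes. Cxcl1 rested on 11 to 75 fragments per library and Cxcl15 on 5751 to 30043.

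**Figure D3:**
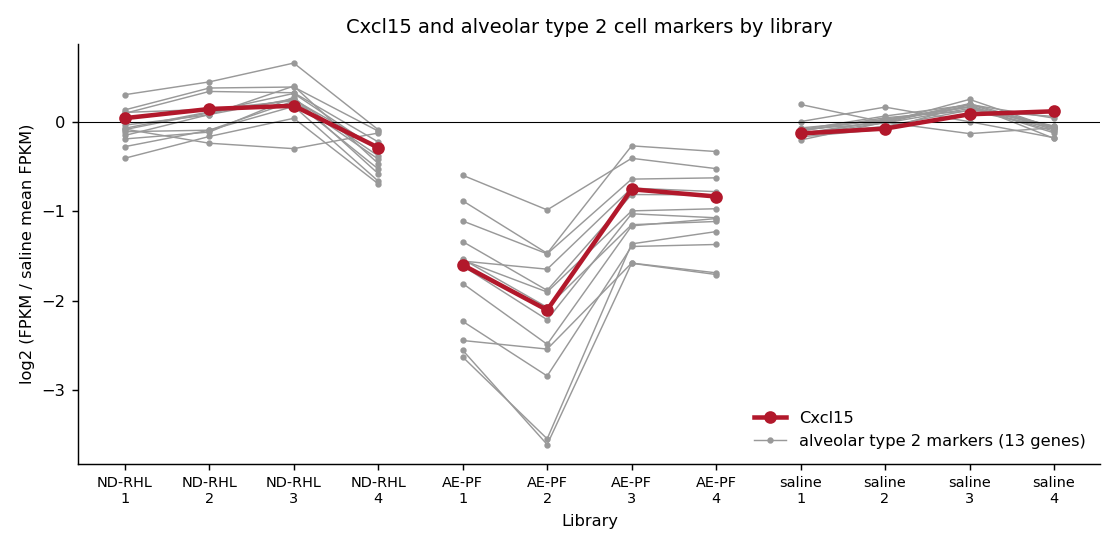
Level of Cxcl15 (red) and of 13 alveolar type 2 markers (grey) in each library, as log2 of FPKM over the saline mean; lines join values of 1 gene within a group and replicates have no order. Cxcl15 lies within the spread of the markers in the 4 AE-PF libraries, lowest in replicate 2.

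Cxcr2, the neutrophil receptor for the ELR chemokines, fell in AE-PF, where Cxcl1, Cxcl2 and Cxcl3 rose. It had 2.68, 4.63, 2.71 and 3.23 FPKM in AE-PF libraries, against 6.18, 5.63, 12.5 and 11.7 in saline libraries, with no overlap. The means were 3.31 ± 0.913 FPKM in AE-PF and 8.99 ± 3.59 in saline (SD, n = 4 each), a 2.71-fold lower AE-PF level (log2 difference -1.16, SE 0.25, limma adjusted p = 0.0024).

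ND-RHL libraries had 3.59, 2.95, 4.62 and 5.56 FPKM of Cxcr2, all below the lowest saline library and overlapping AE-PF. Against saline the ND-RHL mean of 4.18 ± 1.15 was 2.15-fold lower (log2 difference -0.90, limma adjusted p = 0.0275). That call was lost without ND-RHL replicate 1 (adjusted p = 0.0634 in limma), ND-RHL replicate 2 (0.0749), saline replicate 3 (0.0728) or saline replicate 4 (0.0736), and with no filter on low values (0.0633). Against AE-PF the log2 difference was 0.26, with a 95% interval from -0.30 to 0.82 (limma adjusted p = 0.437).

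Red blood cell genes were high in the libraries with most Cxcr2 within each group. Hbb-bs, a beta globin gene, had 408, 601, 635 and 888 FPKM in ND-RHL libraries, 139, 435, 178 and 165 in AE-PF libraries and 278, 285, 799.8 and 762 in saline libraries. Both Hbb-bs and Cxcr2 were highest in replicate 4 within ND-RHL, in replicate 2 within AE-PF and in replicate 3 within saline. ND-RHL replicate 4 and AE-PF replicate 2 were also the libraries rich in squamous and muscle markers. Below the maximum the order differed in ND-RHL. Replicate 2 had the lowest Cxcr2, 2.95 FPKM, with Hbb-bs at 601, and replicate 1 had the lowest Hbb-bs, 408 FPKM, with Cxcr2 at 3.59. In AE-PF against saline 2 of 5 tested red blood cell genes fell and none rose (median log2 difference -0.99). Of all genes 30.2% were called lower there, so 2 of 5 is near that share. In ND-RHL against AE-PF 5 of 5 rose (median 1.46), where 24.3% of all genes were called higher and Cxcr2 did not pass. In ND-RHL against saline none of the 5 passed (median 0.47), where 21.9% of all genes were called. Their part in the Cxcr2 result was not tested.

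Neutrophil markers gave calls in both directions. In AE-PF against saline 5 of the 21 tested rose and 9 fell, with a median log2 difference of -0.49, where 26.4% of all genes were called higher and 30.2% lower. In ND-RHL against AE-PF 5 rose and 5 fell, with a median of 0.24, where 24.3% of all genes were called higher and 17.4% lower. The shares that rose are close to these backgrounds. In ND-RHL against saline 2 rose, 2 fell and 17 did not pass, where 13.3% of all genes were called higher and 8.65% lower. The median there was -0.18, and all 21 lay above the -0.90 of Cxcr2, the lowest at -0.89. Hdc, the histamine-forming enzyme, averaged 4.89 ± 1.33 FPKM in AE-PF and 14.4 ± 2.23 in saline (limma adjusted p = 3.09e-05), and Mmp9, a neutrophil gelatinase, averaged 4.40 ± 0.168 FPKM in AE-PF and 11.6 ± 2.45 in saline (limma adjusted p = 5.31e-05; SD, n = 4 each). Cd177, a neutrophil surface protein, averaged 8.69 ± 3.75 FPKM in ND-RHL and 92.2 ± 30.8 in AE-PF (limma adjusted p = 0.000353). Unlike Hdc and Mmp9, Cd177 was higher in AE-PF than in saline, at 69.0 to 136 FPKM against 4.16 to 22.9. The summed level of the 25 markers overlapped between all groups, at 301 to 498 FPKM in ND-RHL, 345 to 543 in AE-PF and 297 to 604 in saline. These sums mix markers that were higher in AE-PF, such as Cd177, with markers that fell, so their overlap does not show an unchanged neutrophil content. Ltf alone gave 160 of 495 FPKM in ND-RHL replicate 1 and 134 of 475 in saline replicate 1, and 47.5 FPKM or less in every other library. Bpifa1, an airway secretory marker, was highest in the same libraries, at 1818 and 1738 FPKM. The part of airway tissue in these sums was not tested. The defining marker Ly6g was below the filter, at 0.197 to 0.854 FPKM in ND-RHL, 0.0587 to 0.250 in AE-PF and 0.245 to 0.790 in saline. How far neutrophil number moved Cxcr2 was not tested.

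**Figure D4:**
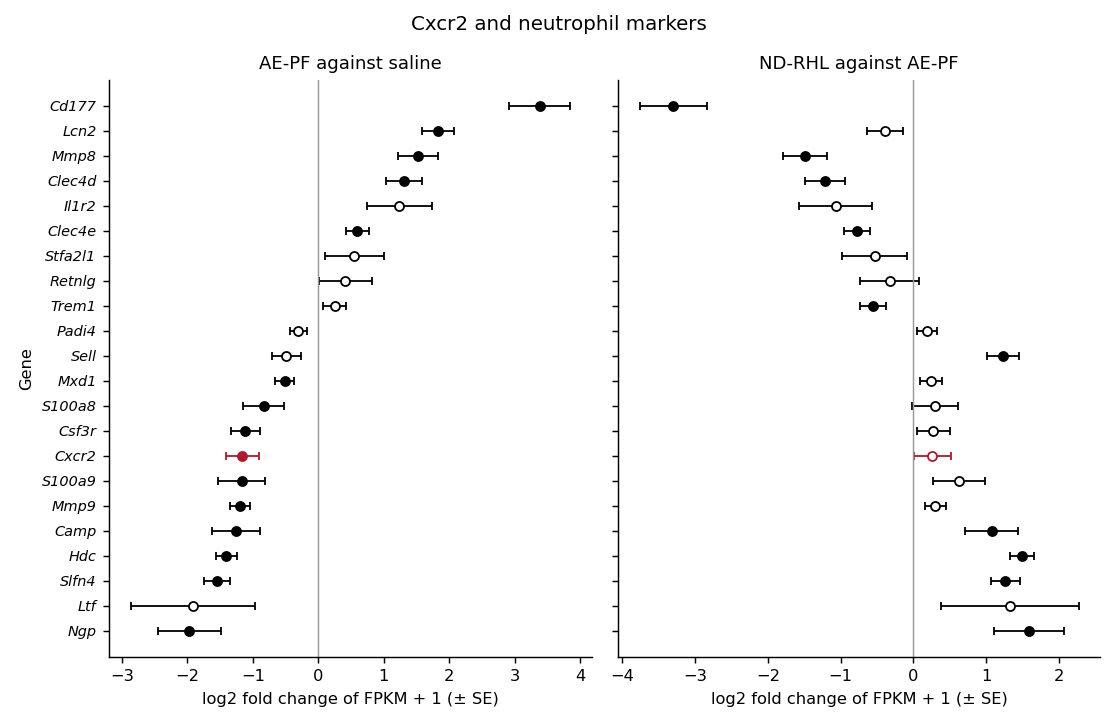
Log2 fold change of FPKM + 1 (horizontal axes, points with SE) of Cxcr2 (red) and the 21 neutrophil markers past the filter, on the left for AE-PF against saline, on the right for ND-RHL against AE-PF; filled points have a limma adjusted p under 0.05. Cxcr2 lies at -1.16 on the left, among the 9 markers that fell, and at 0.26 on the right.

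Counted together, 4 of the 4 members past the FPKM filter were called in AE-PF against saline (limma adjusted p under 0.05), Cxcl1 higher and Cxcl5, Cxcl15 and Cxcr2 lower, where 56.6% of all 15164 genes tested were called, 26.4% higher and 30.2% lower. In ND-RHL against AE-PF 2 of 4 were called, Cxcl15 higher and Cxcl1 lower, where 41.8% of all genes were, 24.3% higher and 17.4% lower. In ND-RHL against saline 2 of 4 were called, Cxcl5 and Cxcr2, both lower, where 21.9% of all genes were, 8.65% lower. With limma-voom on fragments, 6 of 6 were called in AE-PF against saline, 3 higher and 3 lower, where 54.3% of all 18013 genes were, 24.7% higher and 29.6% lower. In ND-RHL against AE-PF limma-voom called 4 of 6, 1 higher and 3 lower, where 39.5% of all genes were, 23.6% higher and 15.9% lower. In ND-RHL against saline it called 2 of 6, both lower, where 19.5% of all genes were, 7.66% lower. Groups did not overlap for 3 members higher and 2 lower in AE-PF than in saline, where 23.9% of all genes were higher and 28.4% lower in that way; for 1 higher and 3 lower in ND-RHL than AE-PF, where 20.7% and 14.5% were; and for 2 lower in ND-RHL than saline, where 10.8% were. With backgrounds this high, being called says little that is particular to these genes, and what they show is direction and size. Both comparisons with saline share the saline libraries, and both that involve AE-PF share the AE-PF libraries.

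Neighbours in the cluster moved in opposite directions. In AE-PF against saline the limma-voom log2 fold changes were, in order along the chromosome, -2.63 for Cxcl5, -2.08 for Ppbp, 1.47 for Pf4, 0.93 for Cxcl3, -1.32 for Cxcl15, 1.00 for Cxcl1 and 1.63 for Cxcl2. Cxcl15 fell between Cxcl3 and Cxcl1, which rose. Ppbp, the gene of platelet basic protein, had 18.3, 21.9, 26.5 and 23.9 FPKM in ND-RHL libraries, against 3.36, 1.48, 5.35 and 4.08 in AE-PF libraries (limma adjusted p = 0.00035). Pf4, which encodes platelet factor 4, went the other way, at 18.5 ± 3.46 FPKM in ND-RHL and 39.3 ± 19.3 in AE-PF (SD, n = 4 each; limma adjusted p = 0.0194). Of 5 tested platelet and megakaryocyte markers, Ppbp and Pf4 among them, 1 rose and 3 fell in AE-PF against saline. Of all genes 26.4% were called higher and 30.2% lower there. In ND-RHL against AE-PF 4 of the 5 rose and 1 fell, where 24.3% of all genes were called higher and 17.4% lower. Gp9, a platelet glycoprotein gene, ranged from 2.24 to 4.92 FPKM in ND-RHL, from 0.467 to 1.25 in AE-PF and from 1.15 to 3.75 in saline. The summed level of the 6 listed markers was 45.6 to 57.6 FPKM in ND-RHL, 33.7 to 72.4 in AE-PF and 21.6 to 50.2 in saline. Pf4 alone gave 25.7 to 67.2 FPKM in AE-PF, so the sums there mostly follow Pf4 and not the other markers. The part of platelets in these results was not tested.

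**Figure D5:**
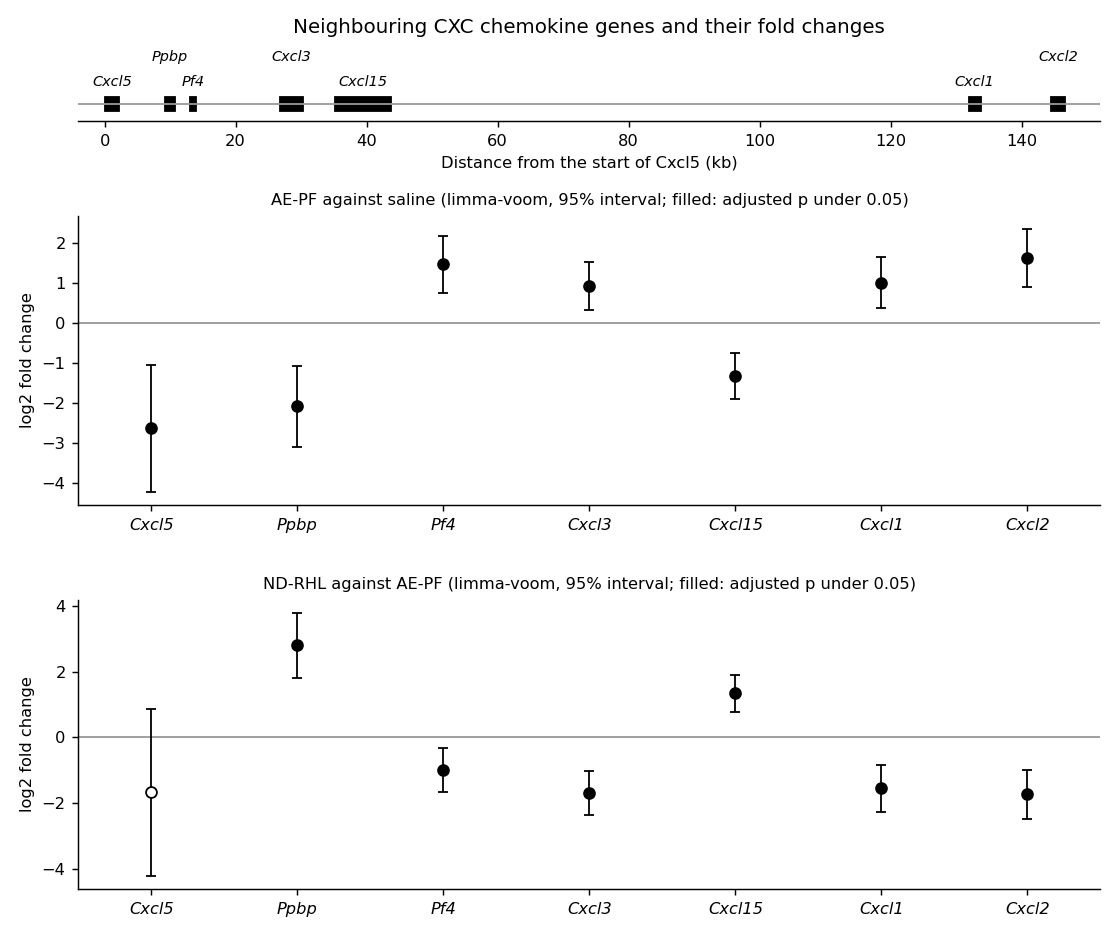
Top, positions of the 5 chemokine genes with Ppbp and Pf4, as distance in kb from the start of Cxcl5; below, limma-voom log2 fold changes with 95% intervals, first AE-PF against saline, then ND-RHL against AE-PF, in the same order along the chromosome. Cxcl15 and Ppbp are lower in AE-PF and higher in ND-RHL, while Pf4, Cxcl3, Cxcl1 and Cxcl2 are higher in AE-PF and lower in ND-RHL.

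Of the remaining receptors for these ligands, Ackr1, an atypical receptor that binds many inflammatory chemokines on venules and red cells without classical signalling, rose in AE-PF. It averaged 0.897 ± 0.509 FPKM in ND-RHL, 7.08 ± 3.56 in AE-PF and 0.605 ± 0.507 in saline (SD, n = 4 each; limma adjusted p = 0.000155 in AE-PF against saline and 0.000804 in ND-RHL against AE-PF). Cxcr1, the second ELR chemokine receptor, was below the filter, at 0.516 to 0.955 FPKM in ND-RHL, 0 to 0.357 in AE-PF and 0.507 to 1.46 in saline.

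Upstream of the ELR chemokines, 21 inducer genes were tested: cytokines, their receptors, sensors, signalling adaptors and NF-kB genes. In AE-PF against saline 12 of the 21 rose and 3 fell, with a median log2 difference of 0.33. Of all genes 26.4% were called higher and 30.2% lower there. In ND-RHL against AE-PF 1 rose and 11 fell, with a median of -0.20, where 24.3% of all genes were called higher and 17.4% lower. Tlr2, a sensor of bacterial lipoproteins, averaged 13.4 ± 1.81 FPKM in ND-RHL, 31.0 ± 7.97 in AE-PF and 9.43 ± 2.48 in saline. Il1r1, the interleukin-1 receptor, averaged 12.6 ± 1.14 FPKM in ND-RHL, 25.4 ± 4.00 in AE-PF and 13.3 ± 0.475 in saline (SD, n = 4 each). Tnfrsf1a, a receptor of tumour necrosis factor, had a log2 difference of 0.50 in AE-PF against saline and of -0.54 in ND-RHL against AE-PF. The interleukin-1 cytokines of the list did not rise clear of saline. Il1b ranged from 5.51 to 20.0 FPKM in AE-PF and from 12.1 to 27.8 in saline. Il1a ranged from 0.477 to 1.60 FPKM in AE-PF and from 1.01 to 1.53 in saline.

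With 26.4% of all genes called higher and 30.2% lower in AE-PF against saline, and 24.3% and 17.4% in the comparison of ND-RHL with AE-PF, the next lists read as follows. Of 13 genes known to restrain these chemokines, 6 rose and 2 fell in AE-PF against saline (median log2 difference 0.44), and 1 rose and 6 fell in ND-RHL against AE-PF (median -0.24). Socs3, a feedback inhibitor of cytokine signalling, averaged 20.0 ± 4.18 FPKM in ND-RHL, 51.2 ± 1.82 in AE-PF and 24.7 ± 3.62 in saline (SD, n = 4 each). Downstream, 11 of 18 genes of CXCR2 signalling and neutrophil adhesion rose in AE-PF against saline and 2 fell (median 0.40), while in ND-RHL against AE-PF 2 rose and 5 fell (median -0.10). Itgam, an integrin of neutrophils and macrophages, averaged 3.97 ± 0.45 FPKM in ND-RHL, 9.17 ± 2.20 in AE-PF and 2.46 ± 0.455 in saline (SD, n = 4 each). Markers of monocytes and macrophages, which also carry Itgam, rose for 14 of 18 in AE-PF against saline and fell for 12 of 18 in ND-RHL against AE-PF; their part in these gene groups was not tested.

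CXC chemokines without the ELR motif, which act mostly on lymphocytes, and their receptors gave 8 of 13 tested that rose in AE-PF against saline and none that fell (median log2 difference 0.76). In ND-RHL against AE-PF 3 rose and 7 fell (median -0.71). Fibroblast markers moved beside them: 6 of 8 rose and none fell in AE-PF against saline (median 1.64), and 6 of 8 fell in ND-RHL against AE-PF (median -1.12). Their summed level was 400 to 555 FPKM in ND-RHL, 1136 to 1985 in AE-PF and 359 to 429 in saline, and their part in this group was not tested. Cxcl13, a B cell attractant, averaged 68.1 ± 40.4 FPKM in AE-PF and 3.54 ± 0.624 in saline (SD, n = 4 each; limma adjusted p = 7.36e-05). Cxcl12, which retains neutrophils in bone marrow, averaged 37.8 ± 4.03 FPKM in ND-RHL and 78.6 ± 4.66 in AE-PF (SD, n = 4 each; limma adjusted p = 6.5e-05). Of 9 genes of neutrophil production and retention 4 were tested. In AE-PF against saline 2 rose and 1 fell (median 0.18), and in ND-RHL against AE-PF 1 rose and 2 fell (median -0.23). Csf2rb, a shared receptor chain of interleukin and colony-stimulating signals, averaged 18.2 ± 4.12 FPKM in AE-PF and 7.58 ± 1.17 in saline (SD, n = 4 each; limma adjusted p = 0.000233). Csf3r, the receptor of granulocyte colony-stimulating factor, averaged 12.4 ± 0.394 FPKM in AE-PF and 29.4 ± 11.0 in saline (SD, n = 4 each; limma adjusted p = 0.00138).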

How the data were processed

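Total lung RNA was enriched for polyadenylated transcripts and sequenced on a DNBSEQ instrument, per the labels' protocols. The authors deposited one table of FPKM values for all 12 libraries. Named in the submitters' processing notes, without role or order, are STAR 2.7.9a, featureCounts, Subread 2.0.1, DESeq2 1.30.1, Trim Galore 0.6.6 and FastQC, with the builds GRCm38 and mm10. Whether counting used strand is not given there.

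Genes with at least 1 FPKM in at least 4 of 12 libraries (15164) were fitted with limma 3.58.1 (R 4.3.3) on log2(FPKM + 1) over the 3 groups with a variance trend, two-sided, with Benjamini-Hochberg adjustment over all genes tested. A call is an adjusted p under 0.05. Cxcl2 and Cxcl3, below the filter, were tested by exact permutation over 6 tests without adjustment. FPKM values gave whole fragments for 35599 of 35599 genes (tolerance 1e-05); limma-voom on genes with at least 10 fragments in at least 4 libraries (18013) was an alternative. The fit was tested on simulated data with few changed genes and the same dispersion for every gene. That setting differs from these data, where many genes were called and genes such as Cxcl5 varied widely. Deviations of same-numbered libraries from their group means correlated at 0.114 to 0.397 in 4 of 4 pairs of ND-RHL and saline. In that comparison the numbers were taken to pair libraries, from the data and not the labels. Only 4 of these 8 libraries correlated best with their own number. The pairing entered only alternative fits with the replicate number as a block. All p-values given above come from tests without pairing. Coordinates came from GENCODE M21.

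The 6 genes and all lists were chosen with earlier results of these data known. Named genes are the 6, at most 3 per list with the smallest p in AE-PF against saline and in ND-RHL against AE-PF, and the nearest profiles. Ly6g, Cxcr1, Sftpc, Pf4, Lamp3, Hbb-bs, Gp9, Il1a and Il1b were named outside that rule. Protein sequences were not used here.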

Additional observations from a re-analysis of the deposited data

Results flagged for a closer look

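Among 18 sets of 4 libraries (6 genes in 3 groups), 2 held a library far from the other 3 by Dixon's criterion, which chance alone meets in about 1 in 20. Both concern Cxcl5. ND-RHL replicate 1 had 1.24 FPKM, and its gap to the nearest of the other 3 was 0.840 of the range of the group. AE-PF replicate 2 had 8.94 FPKM, with a gap of 0.943 of the range.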

How the results depend on the processing

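Calls of Cxcl1, Cxcl5, Cxcl15 and Cxcr2 in AE-PF against saline, and of Cxcl1 and Cxcl15 in ND-RHL against AE-PF, held under every alternative run in which the gene was tested. The differences of Cxcl15 and Cxcl2, which passed no test, changed sign. For Cxcl15 in ND-RHL against saline, 0.02 on the log2 scale became -0.014 with quantile normalisation, -0.02 without ND-RHL replicate 2, -0.034 without ND-RHL replicate 3, -0.02 without saline replicate 1 and -0.0049 without saline replicate 2; the highest value with 1 library left out was 0.122, without ND-RHL replicate 4. For Cxcl2 in the same comparison, -0.014 became 0.053 without ND-RHL replicate 3, 0.0022 without saline replicate 1 and 0.043 without saline replicate 4. Members called in ND-RHL against AE-PF were 2, but 1 at an FPKM minimum of 5, 4 with limma-voom and 4 with no filter, since these settings test fewer or more of the 6. In ND-RHL against saline 2 members became 1 with no filter and 1 to 2 with 1 library left out. All genes called in AE-PF against saline were 8578, and 5710 at the minimum of 5, where fewer genes are tested; in ND-RHL against saline they were 3323, and 2008 to 3953 with 1 library left out, lowest without saline replicate 2 and 2083 without saline replicate 1. The share of calls that were higher was 46.7% in AE-PF against saline and 63.0% at equal FPKM totals, 58.2% in ND-RHL against AE-PF, 37.85% at equal totals and 46.4% with quantile normalisation, and 60.5%, 67.2% and 43.5% in ND-RHL against saline. With the replicate number as a block, members called were 4, 2 and 2 and all genes called 8471, 6061 and 2916. In blocked fits of only the groups compared, added after the data were seen, members called were again 4, 2 and 2 and all genes called 7755, 3490 and 3349, the middle one being ND-RHL against AE-PF, where the main number is 6332. The block changed no call of a member. Same-numbered pairs of ND-RHL and saline all correlated over 0.1, against 0 of 4 pairs of AE-PF and saline (-0.181 to 0.0651) and 1 of 4 of ND-RHL and AE-PF (-0.387 to 0.339), where the numbers were not taken to pair libraries. Some pairs of ND-RHL and saline with unlike numbers also did, such as saline replicate 2 with ND-RHL replicate 3 at 0.316. Others did not, such as saline replicate 3 with ND-RHL replicate 1 at -0.420. The pairing is therefore uncertain.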
